A study of Mus musculus with 25 samples.

Results

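Adventitial fibroblasts marked by Pi16 and Col14a1 were picked out of 5 single-cell RNA-seq libraries of mouse lung. A kept cell was counted as a member when its UMIs (unique molecular identifiers, each standing for a captured RNA molecule) of Pi16, Scara5 and Entpd2 added up to at least 3, when it held at least 2 UMIs of Col14a1, and when it held fewer than 2 of Cthrc1 and fewer than 5 of Hhip. The upper limits set aside Cthrc1 fibroblasts and Hhip cells. In all, 623 of 12059 kept cells met the rule (5.17%), and 622 of them had a mesenchymal gene list as their leading lineage list. The cells were chosen by measured UMIs of these 6 genes, so the levels of these genes and the shares of cells are given below as descriptions, without a test.

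Adventitial fibroblasts sit in the outer sleeve of airways and larger vessels, in the loose matrix through which nerves and lymphatics run. They are known for a stem-like, matrix-organizing program (Pi16, Dpp4, Ly6a, Cd34), for small leucine-rich proteoglycans and elastic fiber proteins, and for chemokines and alarmins such as Il33 that act on immune cells of the cuff space. Alveolar fibroblasts, which surround the gas exchange surface, and the matrix-producing Cthrc1 fibroblasts of fibrotic lungs are separate states.

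The study asked how loss of the death receptor Fas from fibroblasts alters the resolution of bleomycin-induced lung fibrosis. All mice, naive ones included, carried Col1a1-Cre-ERT2 and floxed Fas (Col1-CreERT2;Fas fl/fl), so the Cre acts in cells that use the Col1a1 promoter. Tamoxifen was given to delete Fas (Fas-/-), corn oil left it in place (Fas+/+), and genotype and tamoxifen are therefore a single factor. The study reports that fewer cells of the Fas-/- single-cell libraries expressed the deleted exon, but that some still did. Lin- cells (CD45-, CD31-, CD326-, DAPI-, doublets gated out) were sorted from untreated naive mice and at 3 and 6 weeks after intratracheal bleomycin. Each of the 5 conditions had 1 single-cell library made from 4 pooled mice, and 4 bulk libraries of sorted Lin- cells. With 1 library per condition the single-cell comparisons have no replicate check. Their intervals cover counting error only. The bulk libraries gave the replicate spread.

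The naive single-cell library held 42 members among 603 kept cells, a share of 6.97% (95% Clopper-Pearson interval 5.07 to 9.30). The libraries labelled week 3 held 176 of 2664 cells in Fas+/+ mice (6.61%, 5.69 to 7.62) and 111 of 2608 in Fas-/- mice (4.26%, 3.51 to 5.10). Those labelled week 6 held 139 of 3240 (4.29%, 3.62 to 5.05) and 155 of 2944 (5.26%, 4.49 to 6.13). The share was lowest in the week 3 Fas-/- and week 6 Fas+/+ libraries, and the intervals of these overlapped. The ratio of Fas-/- to Fas+/+ was 0.644 (0.511 to 0.812) at week 3 and 1.23 (0.981 to 1.53) at week 6. The week 6 Fas+/+ library also held 1328 endothelial-lineage cells, against 9 to 269 in the other libraries. Counted among mesenchymal cells alone, the shares were 7.87%, 8.22%, 5.12%, 8.12% and 6.50% in the same order, and the week 6 ratio turned to 0.8004. The week 3 Fas-/- members were also the shallowest, with a median of 8857 UMIs against 13008 to 15896.5 in the other libraries. With each cell thinned to 3000 UMIs and shallower cells left out, the week 3 shares were 4.84% in Fas+/+ and 3.15% in Fas-/- mice, and their ratio was 0.649.

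**Figure D1:**
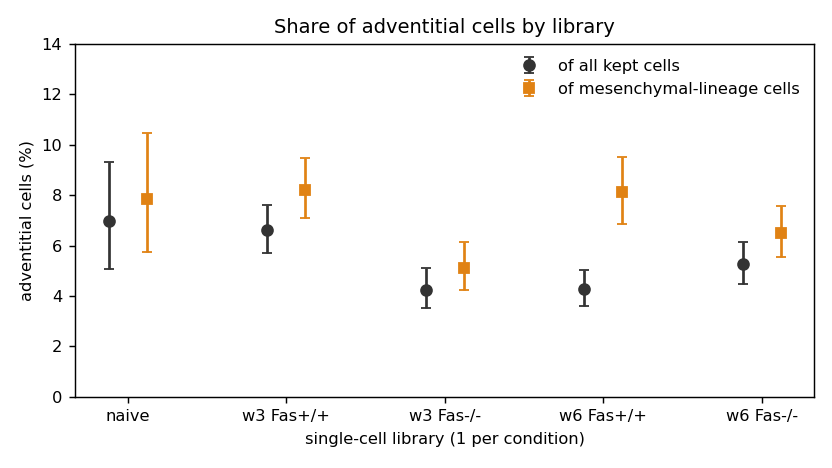
Share of adventitial cells (percent, vertical axis) in each of the 5 single-cell libraries, as a share of kept cells (circles) and of mesenchymal cells (squares), with 95% Clopper-Pearson intervals that cover counting error only. Of kept cells the share ran from 4.26% in the week 3 Fas-/- library to 6.97% in the naive one, and the order of the week 6 libraries turned with the denominator.

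Some members stood at the limits of the rule. Of the 623, 40 stood at the minimum of 3 UMIs for the Pi16, Scara5 and Entpd2 sum, 62 at the minimum of 2 for Col14a1, and 91 at either. Just outside, 60 cells held a sum of 2, and 76 reached the sum with a single Col14a1 UMI. The upper limits removed 141 cells, 123 for Hhip and 20 for Cthrc1. The median member held 12 to 21 UMIs of the 3 summed genes and 5 to 11 of Col14a1 across libraries. Scrublet, a doublet caller, marked 46 of the kept cells (0.381%), too few for the call to have worked, and only 2 were members. Pairs of libraries shared 91 to 289 cell barcodes, and 15 barcodes of members recurred in another library. Of these 15, 8 fell between the naive and week 6 Fas-/- libraries and 3 between the naive and week 3 Fas-/- ones. Another 1 fell between naive and week 6 Fas+/+, and 3 between the 2 Fas-/- libraries. The naive library, the reference of all ratios to naive, held 766 barcodes and 42 members. It shared 286 and 269 barcodes with the week 6 and week 3 Fas-/- libraries. The bearing on these ratios was not tested.

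A small subset of the members carried mesothelial RNA. 19 members (3.05%; 2, 7, 0, 8 and 2 cells in the order naive, week 3 Fas+/+, week 3 Fas-/-, week 6 Fas+/+, week 6 Fas-/-) held at least 20 UMIs of the mesothelial list. In them Upk3b stood at 2312 CPM (UMIs of the gene scaled to a fixed library total), Msln at 2072 and Krt19 at 1037, against 2.00, 1.39 and 1.23 in the 525 members with at most 2 such UMIs. The same 19 cells had 34.2 CPM of Pi16 and 195 of Serpinf1, where the 525 had 1629 and 989. They contributed 86.8 to 92.2% of the members' mesothelial UMIs in the 4 libraries that held any of them. Results on mesothelial genes are given below with and without them. Endothelial transcripts reached 3 UMIs in 216 members, but 70.6% of these UMIs were Ramp2 and only 23 members reached 3 without it. 15 members reached 3 epithelial UMIs and 15 reached 3 hematopoietic ones.

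Before conditions are compared, the week labels of the 2 assays need to be set side by side, because they ran in opposite directions. In the bulk libraries Spp1 (osteopontin) averaged 1776 ± 1199 CPM (SD, n = 4) in Fas+/+ mice at week 3 and 160 ± 35.0 at week 6 (edgeR adjusted p = 0.00158). In the single-cell libraries of the same labels the mesenchymal cells outside the members had 353 CPM at week 3 and 5547 at week 6. Bulk Timp1, a metalloproteinase inhibitor, went from 270 ± 186 to 49.3 ± 15.3 CPM (n = 4 each, edgeR adjusted p = 0.00423), and in the single-cell libraries from 141 to 952. Inmt, an alveolar fibroblast gene, rose in bulk from 881 ± 383 to 2548 ± 330 CPM (n = 4 each, edgeR adjusted p = 0.000215) and went from 3174 to 1285 in the single cells. Of 16 profibrotic genes, 11 were called lower at week 6 than at week 3 in Fas+/+ bulk, beside 10.9% of all genes. All 9 of these measured in the single cells were higher at week 6 in other mesenchymal cells, and 8 of the 9 in members. Of 15 alveolar genes, 14 were called higher in that bulk comparison, beside 12.0% of all genes. All 14 were lower at week 6 in other mesenchymal cells, and 12 of the 14 in members. In Fas-/- bulk only 2 profibrotic genes were called lower and 2 alveolar genes higher, beside 4.54% and 4.48% of all genes. These too ran the other way in other mesenchymal cells. In Fas-/- mice 15 of 16 interferon-response genes were lower at week 6 in bulk, beside 4.54% of all genes, and all 15 were higher in the single cells, in members as well as in other mesenchymal cells. This check was added after seeing the data. The study describes Col1a1 and alpha-SMA reporter signal in lung fibroblasts of bleomycin-treated reporter mice with intact Fas as peaking at week 3 and declining by week 6. In Fas-/- reporter mice it describes more reporter-positive fibroblasts at week 6 than in Fas+/+ ones, by flow cytometry in the CD90+ subset alone for alpha-SMA. Those were other mice, and what this means for the library labels was not tested. Which of the labels holds cannot be told from these files, so the week of a single-cell library is its label throughout, and bulk values set beside single-cell ones are given for both weeks.

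All 6 markers set for these cells were higher in members than in the other mesenchymal cells of every library. Pi16, a glycoprotein of the cysteine-rich secretory family, stood at 1805 CPM in the naive members, at 1655 and 1343 in the week 3 Fas+/+ and Fas-/- members, and at 1298 and 1311 in the week 6 ones. In the other mesenchymal cells it lay between 45.4 and 104. Scara5, a ferritin scavenger receptor, was between 139 and 281 CPM in members and 4.48 and 7.23 in the others. Entpd2, an ectonucleotidase, was between 281 and 364 against 15.7 and 19.5, and Col14a1, a collagen that binds fibril surfaces, between 713 and 870 against 100 and 118. These 4 genes chose the cells. Dcn (decorin) and Serpinf1 (the anti-angiogenic factor PEDF) did not, and they followed the same pattern. Dcn stood at 9454, 10861, 11387, 10834 and 8365 CPM in the 5 libraries, 2.62 to 3.26 log2 units above the other mesenchymal cells. Serpinf1 stood at 1070, 967, 976, 1027 and 815 CPM, 3.11 to 3.66 log2 units above. Serpinf1 UMIs were found in 91.0 to 97.6% of members and in 2.26 to 11.1% of endothelial-lineage cells, whose median depth was 3485 to 5047 UMIs per cell. In GRCm38 coordinates Pi16 lies at chr17:29317680-29330593, Scara5 at chr14:65666403-65764826, Entpd2 at chr2:25395874-25401321, Col14a1 at chr15:55307750-55520803, Dcn at chr10:97479609-97518143 and Serpinf1 at chr11:75409769-75422701.

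Beyond the rule, 110 of 11571 genes (0.951%) were at least 2-fold higher in members than in other mesenchymal cells in all 5 libraries, and 160 (1.38%) at least 2-fold lower. Ranking by the lowest ratio over libraries, against both other mesenchymal and non-mesenchymal cells, left 70 of 8250 genes (0.848%) past 2-fold throughout, of which the first 40 are called adventitial-enriched here. Log2 ratios are of CPM with 10 CPM added. After Serpinf1 came Ccl11 (eotaxin, which draws eosinophils), 2.81 to 3.39 log2 units above the other mesenchymal cells. Il33, an alarmin for innate lymphoid cells, was 2.34 to 3.48 higher and Ccl8, a monocyte chemokine, 1.54 to 2.61 higher. The enriched matrix genes included Fbln2 (2.08 to 3.26) and Fbln1 (1.42 to 2.27), which bind basement membrane and elastic fibers, Tnxb (1.54 to 2.38), an organizer of collagen fibrils, the proteoglycan Lum (1.62 to 2.57), and the matricellular Smoc2 (1.95 to 2.70). Against Cthrc1 cells of the 4 treated libraries Lum did not stand apart, with a log2 ratio of -1.08 to 0.25. Htra3, a secreted serine protease, was 2.36 to 2.72 higher and Anpep, a surface aminopeptidase, 2.23 to 2.85. Cygb, a globin of fibroblasts, was 2.32 to 3.30 higher and Clec3b (tetranectin) 2.18 to 2.49. Among regulators, the transcription factors Osr1 (1.49 to 2.16) and Ebf2 (1.72 to 2.65) and the long noncoding RNA Meg3 (1.72 to 2.27) were enriched. Carriers of small lipids or their metabolism were present as Apod (1.91 to 3.54), Rbp4 (1.52 to 2.45) and Cyp1b1 (2.08 to 3.15). The endosialin gene Cd248 (1.51 to 3.12), Igfbp4 (1.71 to 2.75), the cell adhesion gene Lsamp (2.15 to 2.52), Sfrp4, a secreted Wnt antagonist (1.53 to 2.76), and Emilin2 (1.69 to 2.82) completed the named ones. Ifi204, Ifi205 and Ifi207 were also in the 40, but these near-identical neighbors can share reads and their single values are uncertain.

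**Figure D2:**
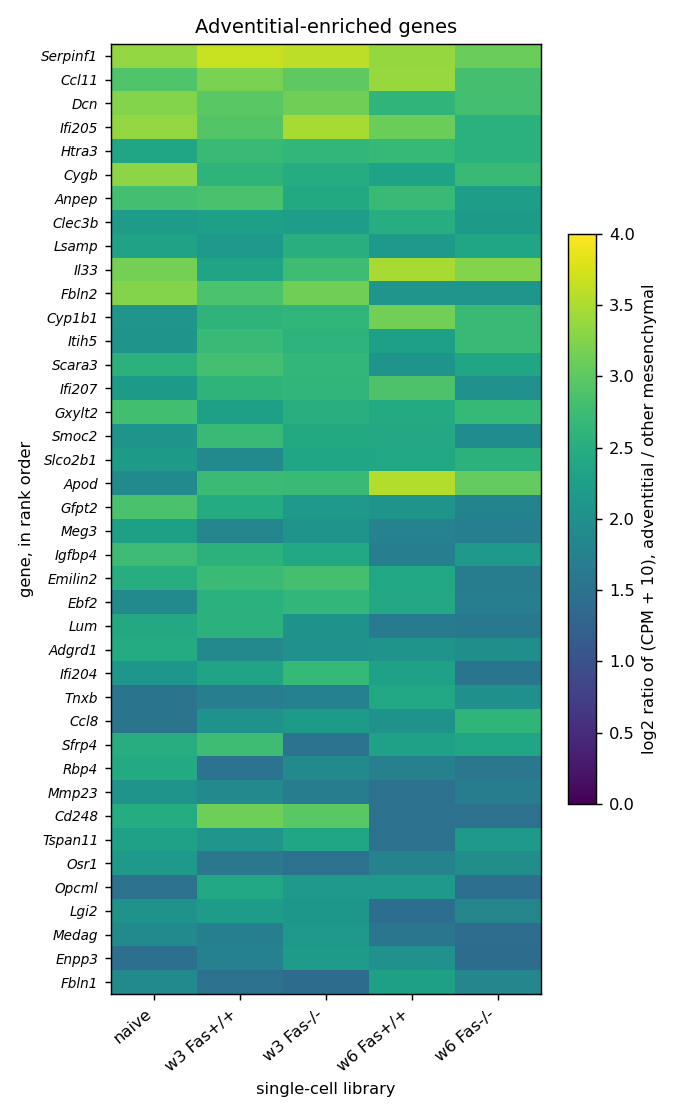
Log2 ratio of CPM (10 CPM added) of adventitial cells over other mesenchymal cells, coloured from 0 to 4, for the 40 adventitial-enriched genes (one line each) in the 5 single-cell libraries (columns). Each gene is past 2-fold in each library, as the rule for the list requires, and Serpinf1 stands between 3.11 and 3.66.

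Most genes of the textbook adventitial program were among them or went the same way. Of 30 such genes, 27 were higher in members in all 5 libraries, beside 14.3% of all genes, 18 of them by 2-fold, with a median log2 ratio of 1.82 against -0.05 over all genes. Ly6a (Sca-1) was 3.37 to 4.60 higher, Ly6c1 3.41 to 3.99, Cd34 1.60 to 2.17 and C3 0.99 to 1.83. Igfbp6 (0.78 to 1.59) and Mfap5 (0.57 to 1.37), genes often used for this cell type, were higher by less. Complement genes as a list had a median of 0.74, with 8 of 13 higher in every library (14.3% of all genes), and C3 UMIs stood at 1880, 3524, 2218, 4063 and 3078 CPM against 845 to 1398 in other mesenchymal cells. Among chemokines, Cxcl12 (1.14 to 1.91) joined Ccl11 and Ccl8. Of 18 proteases and inhibitors 12 were higher throughout (14.3% of all genes), among them Mmp3 (1.28 to 2.49), which cleaves many matrix proteins, Adamts5 (1.19 to 2.11) and Timp2 (0.95 to 1.13).

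The programs of neighboring stromal cells were low. The upper limits of the rule kept 141 cells out of the members for their Hhip or Cthrc1 UMIs, but not out of the comparison cells. This favors low smooth muscle and profibrotic levels in members, so the values are descriptions and no test. All 8 smooth muscle genes were at least 2-fold lower in members in every library, with a median of -3.47, beside 1.38% of all 11571 genes with 20 UMIs in members. Acta2 (smooth muscle actin) stood at 88.5, 210.5, 82.0, 72.9 and 150.3 CPM in members and Myh11 at 0.00, 9.10, 5.19, 5.49 and 5.07. Of 15 alveolar fibroblast genes, 10 were 2-fold lower throughout (median -2.01). Npnt, an integrin ligand of the alveolar basement membrane, was at 56.4 to 96.4 CPM in members and 871 to 1457 in the others. Of 14 measured profibrotic genes 5 were 2-fold lower throughout (median -1.98), and Spp1 stood at 6.00, 8.34, 13.5, 71.4 and 101.0 CPM in members. Tgfbi, a matrix adaptor, went the other way and was 0.83 to 2.34 higher. Fibrillar collagens did not set the members apart as a list, with a median of 0.06 and none of 11 genes past 2-fold in all 5 libraries in either direction. Col1a1 was at 4080, 2415, 2998, 3845 and 5979 CPM in members against 1673, 1504, 2301, 4805 and 4355 in the others. Ribosomal protein genes took 11.7 to 13.4% of the members' UMIs and 8.48 to 9.66% of those of other mesenchymal cells.

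Within a library the members differed most in Mgp (matrix Gla protein, an inhibitor of calcification), which had the highest residual variance in all 5 libraries. Gsn, Apoe, Mt1 and C3 were among those that followed, and Pi16 itself was among the first 10. Mmp3 was spread unevenly, with UMIs in 36.0 to 48.4% of members and 75.5 to 93.4% of the UMIs in the top decile of cells. Dcn was far more even, its top decile of cells holding 20.7 to 28.5%. Apod lay between them with 64.5 to 72.5%. Of the surface markers by which the study gated fibroblasts, Dpp4 (CD26) alone was seen in 50 members, Thy1 (CD90) alone in 63, both in 31 and neither in 479, so most members had no UMI of either at this depth.

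The bulk libraries were used to ask whether the same genes changed with bleomycin and genotype across replicates. They held 11819700 to 25189096 counts each, and 15773 genes passed the filter on low counts. Fas itself, the deleted gene, stood at 22.1 ± 1.25 CPM (SD, n = 4) in naive mice, at 41.0 ± 11.3 and 44.2 ± 14.2 in week 3 Fas+/+ and Fas-/- mice, and at 31.4 ± 6.24 and 40.4 ± 4.59 at week 6. Gene-level counts also cover exons outside the deleted one, so they check nothing about the deletion. Fas was called higher than naive in both week 3 groups (log2 0.90 and 1.00) and in week 6 Fas-/- mice (0.87, edgeR adjusted p = 0.014). In the members of the single-cell libraries Fas stood at 45.0, 45.1, 33.2, 57.9 and 66.9 CPM, and in other mesenchymal cells at 55.8, 65.8, 36.8, 59.7 and 61.4. Between genotypes the log2 difference of Fas in bulk was 0.11 at week 3 (edgeR adjusted p = 0.91) and 0.36 at week 6 (adjusted p = 0.719). In such mixtures, fewer adventitial cells and less RNA of these genes per cell cannot be told apart.

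Pi16 fell in bleomycin-treated lungs of both genotypes. Its level was 297.0, 606.0, 476.6 and 713.3 CPM in the 4 naive libraries, 239.3, 201.2, 183.3 and 263.9 in week 3 Fas+/+ mice, and 210.5, 213.4, 209.8 and 221.2 in week 3 Fas-/- mice. At week 6 it was 384.1, 307.3, 306.7 and 292.7 in Fas+/+ mice and 232.7, 194.7, 240.8 and 294.1 in Fas-/- mice. All naive libraries lay above all week 3 and all week 6 Fas-/- libraries, and the week 6 Fas+/+ libraries overlapped the lowest naive one. The log2 change from naive was -1.24 ± 0.20 (SE, edgeR adjusted p = 0.000128) and -1.29 ± 0.20 (adjusted p = 0.000168) at week 3 in Fas+/+ and Fas-/- mice. At week 6 it was -0.70 ± 0.20 (edgeR adjusted p = 0.0446) and -1.12 ± 0.20 (adjusted p = 0.0027). Between genotypes Pi16 differed by -0.05 ± 0.19 at week 3 (edgeR adjusted p = 0.963) and -0.42 ± 0.19 at week 6 (adjusted p = 0.594), neither of which passed.

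The other rule genes moved with Pi16. Scara5 was 107.8 to 228.8 CPM in naive mice and 55.2 to 102.1 in all week 3 libraries, which did not overlap. It was lower than naive in both week 3 groups and in week 6 Fas-/- mice (log2 -0.76 ± 0.21, edgeR adjusted p = 0.0419), while the week 6 Fas+/+ value of -0.44 did not pass (adjusted p = 0.264). Col14a1 was 627.1 to 927.0 CPM in naive mice, and lower in all 4 groups, by -0.91 ± 0.13 in week 3 Fas+/+ mice (edgeR adjusted p = 6.8e-05) and by -0.51 to -0.60 at week 6. Entpd2 fell at week 3 (log2 -0.76 and -0.71, edgeR adjusted p = 0.00296 and 0.00681) and had values of -0.33 and -0.30 at week 6 that did not pass. Serpinf1 was lower in all 4 groups, between -0.70 and -1.11. Dcn was called lower in the week 3 Fas-/- comparison alone (-0.68, edgeR adjusted p = 0.0116). With an endothelial covariate, the week 3 Fas+/+ calls of Entpd2 and Serpinf1 and this Dcn call were lost. The other week 3 marker calls were kept with it. Of the 6 markers, 5, 6, 3 and 4 were called lower in week 3 Fas+/+, week 3 Fas-/-, week 6 Fas+/+ and week 6 Fas-/- mice, beside 19.2%, 14.8%, 1.74% and 2.81% of all genes. With each of the 8 libraries of a comparison left out in turn, the week 6 Fas+/+ call was kept in 2 fits for Pi16, 1 for Col14a1 and 1 for Serpinf1, and was lost for all 3 with an endothelial covariate. The week 6 Fas-/- call was kept in 8 such fits for Pi16, 7 for Col14a1, 2 for Scara5 and 2 for Serpinf1. The week 6 Fas+/+ call of Pi16 was also lost without the low-count filter, under the replicate block and with the 2 groups alone. That of Col14a1 was also lost under the block. The week 6 Fas-/- calls of Scara5 and Serpinf1 were lost with the 2 groups alone, and that of Scara5 also without the filter.

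**Figure D3:**
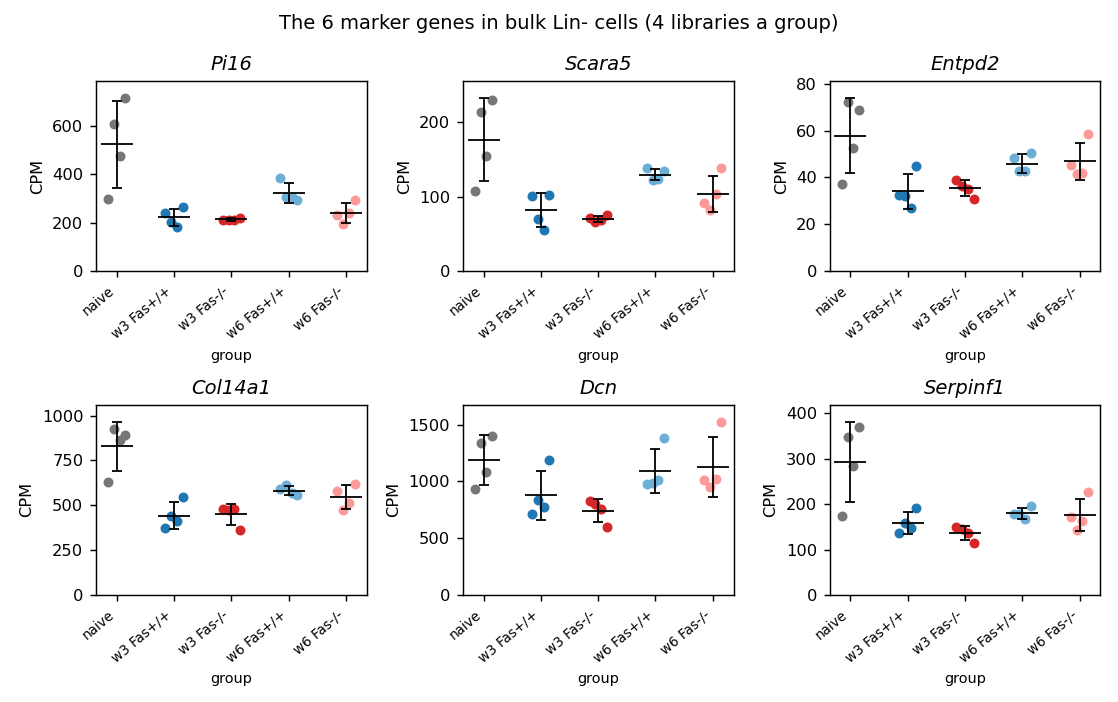
Level in bulk Lin- cells (CPM, vertical axis) of the 6 adventitial markers in each of the 20 libraries (points) with mean and SD over 4 libraries for naive, week 3 Fas+/+, week 3 Fas-/-, week 6 Fas+/+ and week 6 Fas-/- mice. The naive Pi16 values, 297.0 to 713.3, lie above all 8 week 3 values.

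Of the 40 adventitial-enriched genes, 16 were called lower and 2 higher than naive in week 3 Fas+/+ mice (edgeR, adjusted p under 0.05), beside 19.2% and 22.1% of all 15773 genes, and their median log2 change was -0.38 against 0.01 for all genes. In week 3 Fas-/- mice 21 were lower and 3 higher, beside 14.8% and 17.2%, with a median of -0.48. At week 6, 5 were lower in Fas+/+ mice (median -0.14), beside 1.74%, and 12 in Fas-/- mice (median -0.38), beside 2.81%. None was called higher at week 6 by edgeR or DESeq2, beside 3.57% and 3.66% of all genes, and in either direction 12 and 20 genes had an unadjusted p under 0.05. Groups did not overlap for 12, 20, 4 and 9 of the 40 on the lower side in these comparisons, beside 15.5%, 14.9%, 7.35% and 7.82% of all genes, and for 0, 1, 0 and 0 on the higher side, beside 16.7%, 16.2%, 9.27% and 8.31%. The naive libraries serve all 4 comparisons. With single libraries left out in turn, 2 to 7 genes were called lower at week 6 in Fas+/+ mice and 6 to 14 in Fas-/- mice, against 15 to 19 and 18 to 22 at week 3.

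The genes lower in all 4 comparisons were Enpp3, Lsamp, Meg3, Osr1 and Serpinf1. The week 6 Fas+/+ calls of Enpp3 and Meg3 were kept in all 8 fits that left out a library and with the endothelial covariate, and those of Lsamp and Osr1 in 2 of the 8 and not with the covariate. Lsamp was 10.98 to 18.85 CPM in naive mice, 2.75 to 5.54 in all week 3 libraries and 4.75 to 12.03 at week 6, so naive and week 3 did not overlap. Its log2 change was -1.99 ± 0.25 (edgeR adjusted p = 1.6e-05) in week 3 Fas+/+ mice and -0.88 (adjusted p = 0.0374) in week 6 Fas+/+ mice. Osr1, a mesenchymal transcription factor, was 95.8 to 123.3 CPM in naive mice, 44.1 to 61.4 at week 3 and 61.1 to 90.1 at week 6, with no overlap of naive and treated libraries. It changed by -1.05 ± 0.12 (edgeR adjusted p = 4.82e-06) and -1.01 at week 3 and by -0.44 and -0.51 at week 6. Meg3 fell by 1.00 and 1.01 at week 3 and by 0.75 and 1.23 at week 6. Enpp3, an ectonucleotide pyrophosphatase, fell by 1.45 and 1.37 and then by 0.96 and 1.08.

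Other matrix and carrier genes were lower in both week 3 groups, and some of them also in week 6 Fas-/- mice. Clec3b was 524.9 to 736.6 CPM in naive mice and 196.0 to 378.6 at week 3, changing by -1.24 ± 0.16 in Fas+/+ mice (edgeR adjusted p = 1.73e-05). At week 6 its change was -0.46 (adjusted p = 0.103 in edgeR, Fas+/+) and -0.69 (adjusted p = 0.0139, Fas-/-). Rbp4, the plasma retinol carrier, fell by 1.74 and 1.19 at week 3 and by 1.098 in week 6 Fas-/- mice, and its week 6 Fas+/+ value of -0.57 did not pass. Tnxb fell by 1.20 and 1.06 at week 3 and by 0.57 in week 6 Fas-/- mice, with a week 6 Fas+/+ value of -0.43 that did not pass. Fbln1 fell by 0.82 and 0.54, and Opcml, an adhesion molecule, by 0.89 and 0.82, with week 6 values between -0.18 and 0.04 that did not pass. Fbln2 and Igfbp4 were higher in week 3 Fas+/+ mice, and Apod, Ifi205 and Ifi207 in week 3 Fas-/- mice. The calls of Fbln2, Igfbp4 and Ifi205 were each kept in 2 of the 8 fits that left out a library, and that of Tnxb in week 6 Fas-/- mice in 3. The chemokine and alarmin genes Ccl11, Ccl8 and Il33 were called in none of the 4 comparisons, nor were 10 others of the 40, among them Lum, Smoc2 and Cd248.

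**Figure D4:**
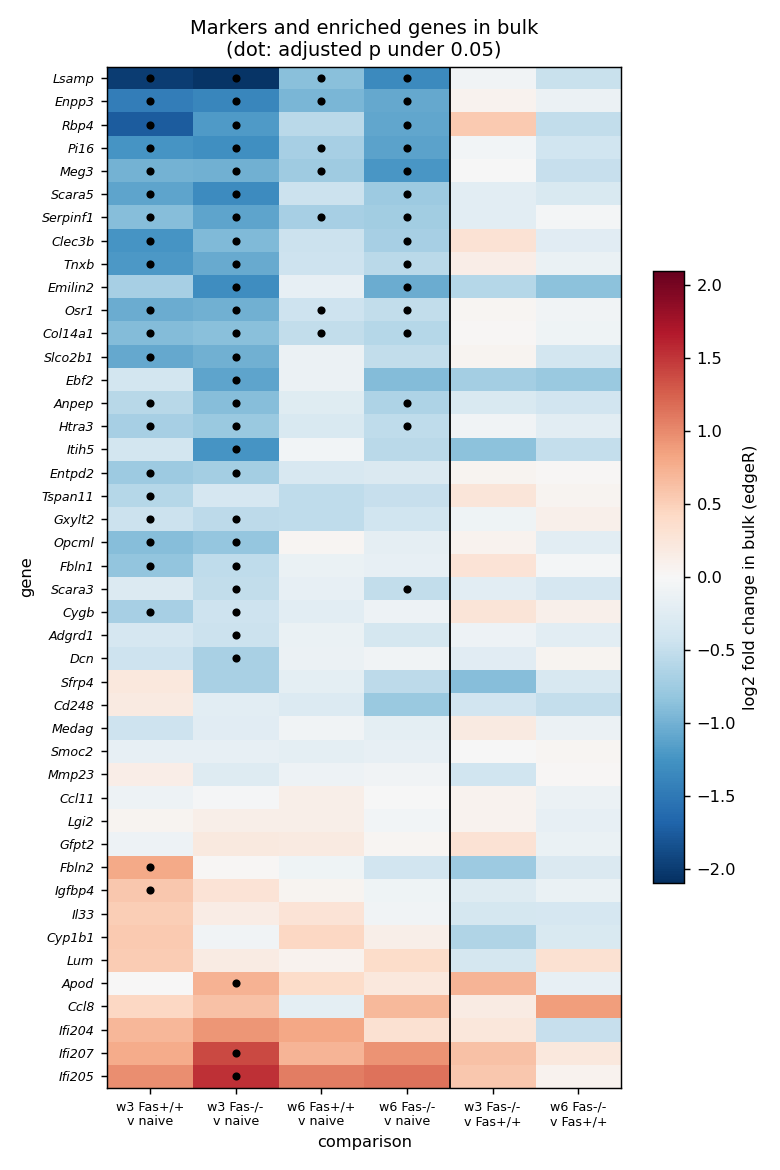
Log2 fold change in bulk Lin- cells (colour) of 44 genes, the 40 adventitial-enriched ones and the 4 markers outside that list, in 6 comparisons (columns), with a dot where the edgeR adjusted p is under 0.05. Lower values gather in the week 3 columns against naive mice, with 16 and 21 of the 40 called lower, and the genotype columns hold no dot for the 40.

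Between genotypes edgeR called none of the 40 at either week, beside 0.165% of all genes higher and 0.00634% lower at week 3 and 0.0254% each way at week 6. At an unadjusted p under 0.05 there were 7 and 8 genes, and DESeq2 called 1 higher at week 3 and none at week 6. Groups did not overlap for 1 of the 40 on the higher and 2 on the lower side at week 3, beside 2.49% and 1.44% of all genes, and for 1 and 4 at week 6, beside 3.47% and 3.33%. Of the genes named here Meg3 had the smallest p at week 6, with 64.2, 65.2, 61.3 and 49.6 CPM in Fas+/+ mice and 44.9, 36.3, 42.7 and 48.5 in Fas-/- mice (log2 -0.48 ± 0.15, edgeR adjusted p = 0.268), whose groups did not overlap. The median over the 40 was -0.01 at week 3 and -0.17 at week 6.

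From week 3 to week 6, a comparison chosen after seeing the data, 10 of the 40 were higher in Fas+/+ bulk and 1, Fbln2, lower (edgeR), beside 12.0% and 10.9% of all genes. The Fbln2 call was kept in 1 of the 8 fits that left out a library. Fbln1 went from 426.0 to 603.7 CPM at week 3 to 774.1 to 871.0 at week 6, without overlap (log2 0.69 ± 0.11, edgeR adjusted p = 0.000391). Opcml (0.93), Lsamp (1.11) and Rbp4 (1.17) also rose. Of the rule genes Scara5 (0.66, edgeR adjusted p = 0.035) and Col14a1 (0.40, adjusted p = 0.0406) were called higher. These 2 calls were kept in 4 and 1 of the 8 fits that left out a library, and both were lost with the endothelial covariate. That of Col14a1 was also lost without the low-count filter, under the replicate block and with the 2 groups alone. In Fas-/- mice Tnxb, Osr1, Opcml and Fbln1 rose and none was called lower, beside 4.48% and 4.54%. Their calls were kept in 2, 7, 5 and 1 of the 8 fits that left out a library. Those of Tnxb and Fbln1 were lost without the low-count filter, under the replicate block and with the endothelial covariate. With the 2 groups alone, those of Opcml and Fbln1 were lost. In either direction 11 of the 40 had an unadjusted p under 0.05 in Fas-/- mice, and DESeq2 called 1 lower. Without week 3 Fas-/- replicates 2 or 4, 1 gene was called higher, and without week 6 Fas-/- replicate 4, none. From week 3 to week 6 the groups did not overlap for 10 of the 40 on the higher and 0 on the lower side in Fas+/+ mice, beside 12.2% and 11.2% of all genes, and for 6 and 1 in Fas-/- mice, beside 9.33% and 8.10%. The difference between the genotypes in this time course was not tested.

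Other cells of the sort moved with these results. The summed CPM of 8 endothelial genes was 144 to 395 in naive libraries, 2046 to 8072 in week 3 Fas+/+ libraries, 565 to 7311 in week 3 Fas-/- libraries, 419 to 1556 in week 6 Fas+/+ and 95.1 to 2398 in week 6 Fas-/- libraries. All 8 were called higher than naive in week 3 Fas+/+ mice and 7 in week 3 Fas-/- mice (edgeR), beside 22.1% and 17.2% of all genes, and none at week 6. With the endothelial level as a covariate, 11, 16, 2 and 12 of the 40 were lower than naive, in place of 16, 21, 5 and 12, and the medians were -0.08, -0.26, 0.01 and -0.31. Alveolar fibroblast genes were also lower (13, 10, 2 and 2 of 15), as were mesothelial genes (7, 6, 0 and 0 of 8) and smooth muscle genes (4, 6, 0 and 0 of 8), beside 19.2%, 14.8%, 1.74% and 2.81% of all genes. Profibrotic genes were higher (12, 12, 1 and 5 of 16), beside 22.1%, 17.2%, 3.57% and 3.66%. Their part in the change of adventitial genes was not tested. In the members of the single-cell libraries the 16 genes lower in week 3 Fas+/+ bulk had a median log2 ratio to naive of -0.16 in the library labelled week 3 and -0.25 in that labelled week 6, where bulk had -0.95. The 21 genes lower in week 3 Fas-/- bulk had -0.13 and -0.32, where bulk had -1.01. Both sets come from the 40, whose rule asked for 2-fold over other cells in every library, treated ones included, which limits how low these ratios could be, and they are no test. Of the 16 and 21 genes, 13 and 13 stood below naive members in the libraries labelled week 3, and 0 and 1 by more than 2-fold.

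Changes inside the members are descriptions of single libraries. Past 2-fold relative to naive members were 68 of 4855 genes in the week 3 Fas+/+ library (1.40%), 61 of 2557 in week 3 Fas-/- (2.39%), 78 of 4122 in week 6 Fas+/+ (1.89%) and 141 of 4297 in week 6 Fas-/- (3.28%). Between genotypes 46 of 5134 genes (0.896%) were past 2-fold in the libraries labelled week 3 and 58 of 5735 (1.01%) in those labelled week 6. On the higher side alone the shares were 1.03%, 1.13%, 1.48% and 2.12% relative to naive, in the same order, and 0.195% and 0.262% between genotypes. Textbook adventitial genes had medians of 0.16, 0.04, -0.02 and -0.04 relative to naive.

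Serpina3n and Timp1 stood higher in the members of the 4 treated libraries than in naive ones, and highest in those labelled week 6. Serpina3n, a secreted protease inhibitor, stood at 70.5 CPM in naive members, 207 and 235 in the week 3 Fas+/+ and Fas-/- libraries, and 655 and 695 in the week 6 ones, 9.29 times naive (exact counting interval 6.94 to 12.7) and 9.85 times (7.37 to 13.5). In the other mesenchymal cells its week 6 log2 ratios were 1.94 in both genotypes, against 3.05 and 3.13 in members. Timp1 stood at 81.0, 151, 146, 401 and 497 CPM in members, log2 2.18 and 2.48 at week 6, where other mesenchymal cells had 4.05 and 4.10. At week 6, 12.3% and 10.8% of endothelial-lineage cells held a Serpina3n UMI and 15.96% and 19.3% one of Timp1, at median depths of 5047 and 4315 UMIs, against 61.2% and 82.6%, and 71.2% and 80.6%, of members at 14698 and 13008. Spp1 did not exceed that background. Its 71.4 and 101.0 CPM in week 6 members lay under the 164 and 264 CPM of endothelial-lineage cells, of which 59.1% and 58.0% held a Spp1 UMI, against 59.0% and 72.3% of the deeper members. After thinning to 3000 UMIs a Spp1 UMI was found in 21.4% and 29.2% of members and in 38.4% and 40.4% of endothelial-lineage cells. Its level in members is therefore not read as a change. Pla1a, a phosphatidylserine phospholipase, was 2.21 and 2.34 higher at week 3. Of its 14 naive UMIs 64.3% came from 1 cell, and without the top cell of each library the values were 2.87 and 2.74. Of the acute-phase list, 3 of 12 and 2 of 10 measured genes were past 2-fold higher in the week 3 Fas+/+ and Fas-/- libraries and 7 of 14 and 4 of 11 in the week 6 ones, with medians of 0.25, 0.11, 0.96 and 0.97 in members and 0.70, 0.58, 1.27 and 1.24 in other mesenchymal cells. In week 3 Fas+/+ and in week 6 Fas-/- members 1 gene of the list was past 2-fold lower.

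The ratios of collagen genes were smaller in the members than around them. The median log2 ratio of fibrillar collagens to naive was -0.30 and -0.33 in the libraries labelled week 3 and 0.07 and 0.37 in those labelled week 6, where other mesenchymal cells had 0.01, 0.42, 1.08 and 1.00. Fn1 (fibronectin) stood at 672, 912, 830, 932 and 846 CPM in members and at 889, 1440, 1715, 3478 and 3264 outside them. Immediate-early genes had medians of -0.35, -0.62, -0.15 and -0.58 relative to naive members, against -0.27, -0.35, -0.39 and -0.37 in other mesenchymal cells. Atf3, a stress-response transcription factor, went from 545 CPM in naive members to 179 and 84.9 in the week 6 Fas+/+ and Fas-/- libraries. Its log2 ratios were -1.55 and -2.55, against -0.37 and -0.69 in other mesenchymal cells. Class I antigen presentation genes stood above naive in 10 of 10, 6 of 7, 9 of 9 and 9 of 9 measured genes, beside 49.5%, 49.3%, 48.2% and 49.8% of all genes. Their medians were 0.68, 0.39, 0.39 and 0.75 in members and 0.63, 0.42, 0.50 and 0.72 in other mesenchymal cells.

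Interferon-response genes separated the genotypes in the libraries labelled week 6. Ifi27l2a stood at 548 CPM in naive members, 1085 and 750 in week 3 Fas+/+ and Fas-/- members, and 813 and 2109 at week 6, so the week 6 Fas-/- library was the highest, at 2.59 times the Fas+/+ one (2.45 to 2.75). Isg15, a ubiquitin-like modifier, went from 59.9 to 162 CPM between the week 6 genotypes (2.70 times, 2.19 to 3.35) and Ifit1, which binds foreign RNA, from 21.97 to 84.86 (3.86 times, 2.77 to 5.50). All 10 measured genes of the list were higher in Fas-/-, beside 50.4% of all genes, and 5 past 2-fold, with a median of 0.96 in members, 1.03 in other mesenchymal cells and 0.00 over all genes. In the week 3 libraries the median was -0.37. In the replicated bulk libraries 7 of 16 interferon genes were higher in Fas-/- mice at week 3 (edgeR, median 1.00), beside 0.165% of all genes. This count was 0 without week 3 Fas+/+ replicate 2 or replicate 3, where no gene of the table was called higher, 1, 4 and 3 without Fas-/- replicates 1, 2 and 3, and 4 with the 2 groups alone, while the median stayed between 0.90 and 1.04 with single libraries left out. At week 6 neither edgeR nor DESeq2 called any (median -0.45), and 6 had an unadjusted p under 0.05. Ifi27l2a was 60.1 to 92.8 CPM in week 3 Fas-/- bulk against 18.5 to 31.7 in Fas+/+, without overlap (log2 1.59 ± 0.31, edgeR adjusted p = 0.0436, and 0.0118 to 0.166 with single libraries left out), and -0.79 at week 6 (adjusted p = 0.463). The direction within a week label therefore differed between the assays for this list too, as it did for the time course above.

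The chemokine genes Ccl2 and Ccl7 went opposite ways at the 2 labels. Ccl7, a monocyte chemoattractant, was 166 CPM in week 3 Fas+/+ members and 16.6 in Fas-/- members (0.10 times, 0.06 to 0.16), and 147 and 401 at week 6 (2.73 times, 2.39 to 3.13). Ccl2 was 143 and 16.6 at week 3, and 102 and 300 at week 6 (2.93 times, 2.50 to 3.44). At week 6, 10.3% of Fas-/- and 12.9% of Fas+/+ members held a Ccl2 UMI, and 40.2% and 45.9% of its UMIs came from 1 cell in each library. For Ccl7, 52.0% of the week 6 Fas+/+ UMIs came from 1 cell. Without the top cell of each library the week 6 log2 ratios were 1.53 for Ccl2 and 2.06 for Ccl7. In other mesenchymal cells the week 6 log2 ratios were 0.31 for Ccl7 and 0.08 for Ccl2, against 1.39 and 1.46 in members. Their week 3 log2 ratios were -0.83 for Ccl7 and -0.85 for Ccl2, against -2.73 and -2.52 in members. Bulk Ccl2 and Ccl7 had log2 values of -0.09 and -0.13 at week 3 and -1.53 and -1.03 at week 6, none of which passed in edgeR.

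Dpp4, the gene for CD26 and a marker of the Pi16 state, was low in a single library. It stood at 42.0 CPM in naive members, 92.2 and 70.6 at week 3, 71.4 in week 6 Fas+/+ members and 9.22 in week 6 Fas-/- members, or 143 and 20 UMIs in the last 2 libraries (0.13 times, 0.08 to 0.21). The share of members with a Dpp4 UMI was 16.5% in week 6 Fas+/+ and 3.23% in week 6 Fas-/-, and 9.92% and 0.694% after each cell was thinned to 3000 UMIs. Endothelial-lineage cells had 40.7% and 37.5%, at median depths of 5047 and 4315 UMIs against 14698 and 13008 in members. Other mesenchymal cells differed by -0.17 on the log2 scale, against -2.08 in members (-1.85 without the mesothelial-rich members). In bulk Dpp4 differed between the genotypes by -0.42 ± 0.46 at week 3 (edgeR adjusted p = 0.843) and by -0.26 ± 0.46 at week 6 (adjusted p = 0.982), with overlapping groups at both weeks. Cxcl13, Ptgs2 and Wt1 were also lower in week 6 Fas-/- members, at 131, 41.5 and 17.5 CPM against 723, 197 and 101, and 69.6% of the Cxcl13 UMIs came from 1 cell. The log2 ratio of Wt1, a gene also used by mesothelial cells, was -2.02 with and without the mesothelial-rich members. Tagln, a smooth muscle actin-binding gene, was higher, 104 against 28.5 CPM.

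**Figure D5:**
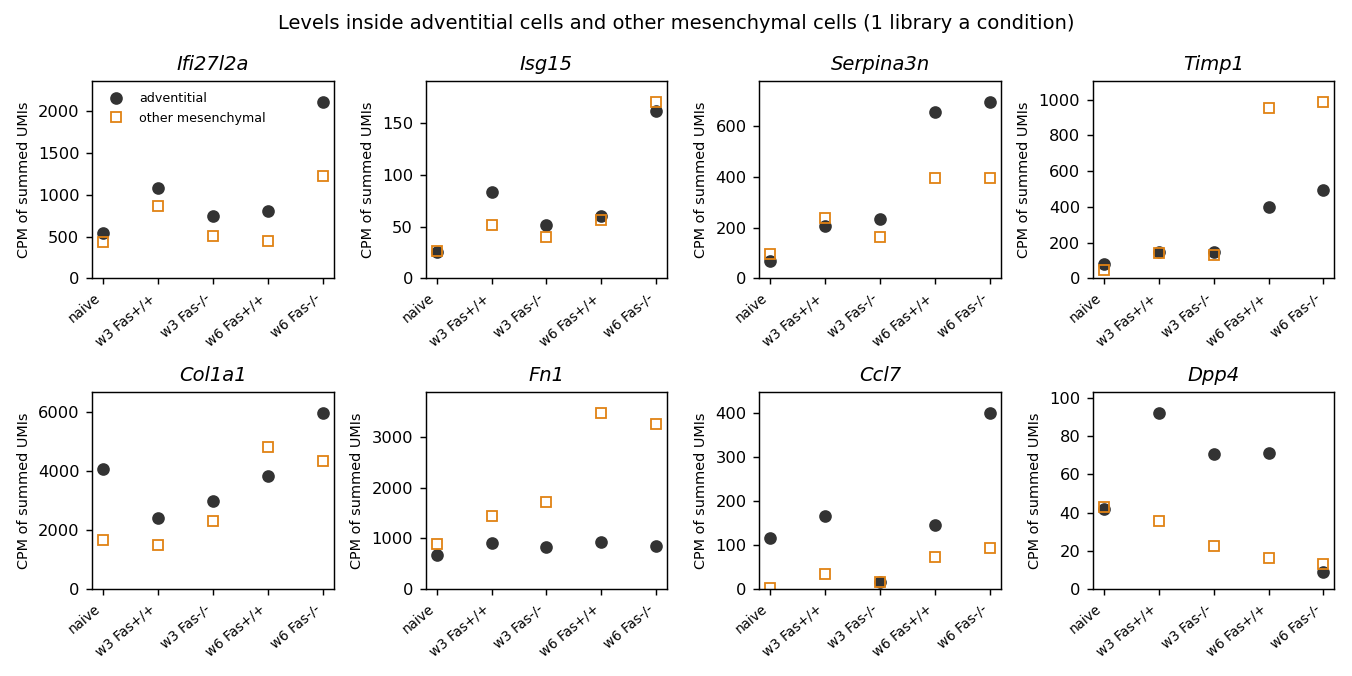
Level (CPM, linear vertical axis) of 8 genes in adventitial cells (circles) and in other mesenchymal cells (open squares) of the 5 single-cell libraries, 1 library per condition and so without error bars over replicates. Ifi27l2a reaches 2109 CPM in week 6 Fas-/- members, and Dpp4 is at 9.22 CPM there, where other mesenchymal cells are at 13.4.

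Between the genotypes at the week 3 label the lowest ratios in members besides Ccl2 and Ccl7 included those of mesothelial genes, Gpm6a (-3.58), Upk3b (-3.43), Msln (-2.97) and Muc16 (-2.33). The week 3 Fas-/- library held none of the 19 mesothelial-rich members and the Fas+/+ library 7, and without those 7 Gpm6a stood at -0.12, Upk3b at 0.28, Msln at -0.10 and Muc16 at 0.27. On the higher side were Bc1, Rpl10-ps3, Rps27rt, Wdr89 and Gm8797, most of which can share reads with near-identical copies, so their values are uncertain. Their log2 ratios were 2.66, 2.18, 2.07, 1.98 and 1.36 in members and 2.55, 2.17, 1.86, 1.88 and 1.28 in other mesenchymal cells. Cilp, a cartilage matrix protein, was 1.23 higher, but 53.7% of its Fas-/- UMIs came from 1 cell. Without the top cell of each library the value was 0.36.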

How the data were processed

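The deposited single-cell files hold counts: UMIs per gene and barcode that the authors made with Cell Ranger on GRCm38. The bulk files hold read counts per Ensembl gene that the authors made after trimming, with HISAT2 and HTSeq on GRCm38 and an Ensembl annotation. The versions of HISAT2 and HTSeq are not given in the sources used here. Columns of the authors' normalized bulk table were not used. Barcodes were kept between 200 and 7500 detected genes when no more than 20% of UMIs were mitochondrial, and doublets stayed in. Members' UMIs were summed per library and scaled to CPM, and log2 ratios carry 10 CPM. Genes needed 100 UMIs over both libraries. Counting intervals are exact at 95%, and PCR reads without molecular identifiers (bulk) are not independent molecules. The study's methods count individual animals as n, with n = 4 for bulk, and the labels themselves name no animal.

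Bulk counts were tested with edgeR 4.0.16 (quasi-likelihood F test, TMM, filterByExpr, all 20 libraries in 5 groups, Benjamini-Hochberg, 0.05) in R 4.3.3 with limma 3.58.1. Single-cell steps used Python 3.11.15, scipy 1.17.1 and scanpy 1.11.5. The code was tested on simulated data. Named genes are the 6 markers, the 40 enriched genes by their lowest ratio (14 of them, by smallest p against naive, with bulk values), and the 8 highest and lowest ratios per single-cell comparison. Of these the text gives a part, and genes of other lists are named as examples. The members and lists were chosen with earlier results of these data known. Alternatives were DESeq2 1.42.0, RLE factors, no filter, the compared groups alone, the replicate block, an endothelial covariate, leaving out libraries, other cell rules, UMI minimums and pseudocounts, thinning and doublet removal. Leaving out mesothelial-rich members or the cell with most UMIs, the week 6 versus week 3 comparisons, the alternatives for the interferon list and the check of week labels were added after seeing the data.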

Additional observations from a re-analysis of the deposited data

Results flagged for a closer look

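In groups of 4 bulk libraries the following single libraries stood apart from the other 3 by Dixon's ratio. Of 115 groups of 4 tested, 9 passed it, where chance gives about 1 in 20. Pi16 in week 6 Fas+/+ replicate 1 was 384.1 CPM, with 293 to 307 in the others, and Lsamp in the same library was 12.03 CPM, with 7.15 to 7.57. In week 3 Fas-/- replicate 4, Col14a1 was 362.9 CPM (473 to 480 in the others) and Htra3 118 CPM (150 to 152). Dcn was 1379 CPM in week 6 Fas+/+ replicate 4 (980 to 1012) and 1523 CPM in week 6 Fas-/- replicate 4 (951 to 1024). The summed endothelial CPM was 8072 in week 3 Fas+/+ replicate 1 (2046 to 2782), 7311 in week 3 Fas-/- replicate 4 (565 to 964) and 2398 in week 6 Fas-/- replicate 2 (95.1 to 394). The library with low Col14a1 and Htra3 is thus the one with the high endothelial sum of its group, and the part of the one in the other was not tested.

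Of 297 genes of the fixed lists with 100 UMIs in both genotype comparisons of the single-cell members, 115 had ratios of opposite sign at the 2 week labels and 3 were past 2-fold in opposite directions. The log2 ratio of Fas-/- to Fas+/+ was -2.52 and 1.46 for Ccl2, -2.73 and 1.39 for Ccl7, and -1.996 and 1.56 for Tagln, at the labels week 3 and week 6. With 1 library per group this difference was not tested.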

How the results depend on the processing

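The ratio of shares moved with the denominator and with the removal of members holding 3 UMIs of another lineage list. Without those members it was 0.825 at week 3 and 1.73 at week 6, and over mesenchymal cells 0.8004 at week 6. Of the removed members 216 reached 3 endothelial UMIs, and only 23 did so without Ramp2. Counts of genes past 2-fold, in the order week 3 Fas+/+, week 3 Fas-/-, week 6 Fas+/+, week 6 Fas-/-, depended on how low genes were treated. With a minimum of 200 UMIs they were 39, 31, 41 and 93, with 50 CPM added 22, 32, 30 and 52, with a minimum of 50 UMIs 114, 136 and 212 in the last 3, and with 1 CPM added 116 in the first. For the genotypes at week 3 they were 77 (50 UMIs), 28 (200 UMIs), 19 (50 CPM), 23 (stricter rule) and 26 (without mesothelial-rich members), and at week 6 they were 37 (200 UMIs), 15 (50 CPM) and 94 (1 CPM).

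Ratios to naive that turned sign under the stricter rule were Fabp5 (0.32 and 0.69 in Fas+/+ at weeks 3 and 6), Upk3b 0.32, Msln 0.32, Gpm6a 0.17 and Krt19 0.23 (week 3 Fas-/-), Krt19 0.58 (week 6 Fas+/+) and Gpm6a 0.15 (week 6 Fas-/-). Between genotypes they were Upk3b 0.45, Muc16 0.32 and Lrrn4 0.10 at week 3 and Cd74 0.024 at week 6. Without mesothelial-rich members they were Fabp5 0.34 and 0.33, Upk3b 0.095, Msln 0.39, Gpm6a 0.14, Krt19 0.21, Slpi -0.14 (week 6 Fas+/+) and Gpm6a 0.13 (week 6 Fas-/-), and between genotypes Upk3b 0.28, Muc16 0.27 and Lrrn4 0.21 at week 3 and Slpi 0.11 at week 6. Without the top cell Fabp5 was 0.48 and 0.53. By construction, leaving out the top cell removes the cell with most UMIs of the gene. Leaving out mesothelial-rich members removes cells picked for mesothelial genes. The stricter rule raises only the minimums of the rule genes, and 3 of the 19 mesothelial-rich members still met it. Why values turned under it was not tested.

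In bulk, enriched genes higher in week 3 Fas+/+ than naive numbered 1 without the filter, 1 under the replicate block and 0 with the 2 groups alone. Lower in week 6 Fas+/+ were 8 by DESeq2 and 2 with the endothelial covariate. Higher in week 3 Fas-/- than Fas+/+ was 1 by DESeq2 and 1 under the replicate block, and of the interferon genes 4 with 2 groups, 5 under the block and 0 to 9 with 1 library left out (0 to 0 lower, and 0 to 0 both ways at week 6). From week 3 to 6, lower in Fas+/+ were 0 without the filter, 3 with the covariate and 0 with 2 groups. In Fas-/- 2 were higher under each of these 3 settings, and 1 was lower by DESeq2 and by the block. Leaving out 1 library gave 0 to 5 higher and 15 to 19 lower for week 3 Fas+/+ against naive, 1 to 3 and 18 to 22 for week 3 Fas-/-, 0 to 0 and 2 to 7 for week 6 Fas+/+, and 0 to 0 and 6 to 14 for week 6 Fas-/-. It gave 0 to 1 and 0 to 0 for genotypes at week 3, 0 to 0 both ways at week 6, 9 to 11 and 0 to 4 for Fas+/+ over time, and 0 to 6 and 0 to 0 for Fas-/- over time. The week 6 Fas+/+ count fell to 2 or 3 without any of naive replicates 2, 3 and 4 or any library of its own group, and the week 6 Fas-/- count to 6, 7 or 8 without naive replicates 2 or 4 or its own replicates 1, 2 or 3. Replicate numbers did not pair the libraries (40 same-number pairs, correlations of deviations -0.464 to 0.403). Beyond these, the causes were not tested, and no single-cell value has a replicate.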
